A study of Mus musculus with 3 samples.

Results

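Secreted proteins of the acute-phase response and of protease control, Saa3, Slpi, Lcn2, Hp, Wfdc17 and Wfdc21, are described here at the level of their transcripts in leukocytes of the infarcted mouse heart. These 6 genes, of 29298 in the count tables, were chosen by name, after Saa3 had been seen to be high in macrophages rich in coagulation factor VII (F7) transcripts in the same data. Hearts were from 2 genotypes, F7fl/fl CX3CR1Cre, in which the recombinase is made by cells that use the Cx3cr1 gene, and F7fl/fl WT, so the floxed F7 allele was shared by all animals. They were taken at several times after permanent ligation of a coronary artery, and the labels state no age or sex. Cells were enriched on CD45 beads and their polyadenylated RNA was read on the BD Rhapsody platform in 3 multiplexed libraries. The libraries pooled 7, 5 and 6 sample tags, each marking the cells of 1 biological replicate. No genotype or time is given here for single tags, so no genotypes or times were compared, the tests set cell classes of the same tags against each other, and F7 itself could not be used to check the genotypes. Classes were set by counts of a few marker genes, none of them among the 6: 488 neutrophils, 2422 monocytes, 1362 dendritic cells, 415 fibroblasts, 779 B cells, 1225 T cells and 14977 macrophages, with 3972 cells in no class.

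The acute-phase response is the rapid change in secreted proteins that follows injury, driven by interleukin-1, interleukin-6 and related cytokines through NF-kB, STAT3 and C/EBP factors. Serum amyloid A3 (Saa3) is the extrahepatic member of its family and a mouse gene of activated macrophages and stromal cells. Lipocalin 2 (Lcn2) takes up bacterial siderophores and is stored in neutrophil granules, where it binds the gelatinase Mmp9, and haptoglobin (Hp) captures free haemoglobin for uptake through the receptor Cd163. Secretory leukocyte protease inhibitor (Slpi) blocks neutrophil elastase and cathepsin G, and it carries the WAP domain, a small disulfide-rich fold that Wfdc17 and Wfdc21 share. Wfdc17 is also called activated microglia/macrophage WAP domain protein.

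The genes lie on 4 chromosomes of GRCm38, in GENCODE M21 coordinates. Saa3 (ENSMUSG00000040026) is on chromosome 7 at 46711998 to 46715700 and Hp (ENSMUSG00000031722) on chromosome 8 at 109575128 to 109579172, both on the minus strand. Lcn2 (ENSMUSG00000026822, 32384633 to 32388252) and Slpi (ENSMUSG00000017002, 164354070 to 164389095) are far apart on the minus strand of chromosome 2. Wfdc17 (ENSMUSG00000069792, 83703991 to 83706268) and Wfdc21 (ENSMUSG00000051748, 83746940 to 83752642) are both on the plus strand of chromosome 11, with 40671 bases between them. Promoters of 4 of the 6 genes were found in the RefSeq table of GRCm38.p6, as 300 bases from 250 before to 50 after the start. Those of Saa3 and Slpi are shown because both transcripts were concentrated in few macrophages, and that of Lcn2 because its transcript marked neutrophils. All are written 5′ to 3′ on the strand of the gene, with motif letters in capitals. The windows of Slpi and Lcn2 lie wholly within the GENCODE spans given above, so their RefSeq starts are not the GENCODE 5′ ends.
Saa3 promoter, chr7:46715627-46715926, minus strand: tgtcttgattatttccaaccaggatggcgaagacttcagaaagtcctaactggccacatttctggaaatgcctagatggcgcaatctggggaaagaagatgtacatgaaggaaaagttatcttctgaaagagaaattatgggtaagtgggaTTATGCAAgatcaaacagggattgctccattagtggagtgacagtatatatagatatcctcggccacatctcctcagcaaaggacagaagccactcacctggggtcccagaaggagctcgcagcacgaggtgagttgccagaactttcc
Slpi promoter, chr2:164356458-164356757, minus strand: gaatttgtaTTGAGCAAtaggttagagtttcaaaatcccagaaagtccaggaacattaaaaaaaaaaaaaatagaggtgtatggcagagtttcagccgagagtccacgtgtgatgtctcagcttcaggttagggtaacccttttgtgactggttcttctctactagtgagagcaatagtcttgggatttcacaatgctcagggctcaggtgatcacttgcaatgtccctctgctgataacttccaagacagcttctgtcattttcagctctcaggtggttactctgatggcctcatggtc
Lcn2 promoter, chr2:32387690-32387989, minus strand: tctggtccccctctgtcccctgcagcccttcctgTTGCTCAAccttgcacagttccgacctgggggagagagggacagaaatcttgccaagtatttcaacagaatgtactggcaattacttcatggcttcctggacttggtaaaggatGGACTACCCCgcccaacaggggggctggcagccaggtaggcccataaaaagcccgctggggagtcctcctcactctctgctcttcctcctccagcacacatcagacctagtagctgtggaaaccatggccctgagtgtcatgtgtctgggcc
The letters TTGCNNAA, bound by C/EBP factors, were searched on both strands. They occurred 1 time in each of these 3 promoters and not in that of Wfdc17, and 10.8% of all 32851 promoters in the table held them. The NF-kB letters, GGG and CC with any 5 between them, were found in the Lcn2 promoter, where 50.8% of all promoters held them. Neither the STAT letters TTCNNNGAA (8.30% of all promoters) nor the AP-1 letters TGANTCA (7.81%) were found in the 4 windows. Matches overlapped each other in none of the sequences shown, and binding was not measured.

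Cell numbers were 15274, 4953 and 5535 in the 3 libraries, and deduplicated molecules numbered 349827525, 88942652 and 93812439, which makes 10152522 to 62344127 per tag. Median molecules per cell were 3997 in neutrophils, 12687 in monocytes, 13783.5 in dendritic cells, 26512 in fibroblasts and 20550 in macrophages. Markers that the class rules did not use were highest in their own class for 4 of 4 neutrophil, 5 of 5 dendritic cell, 4 of 4 fibroblast, 3 of 3 T cell, 3 of 3 B cell, 5 of 6 macrophage and 3 of 6 monocyte markers. The lymphoid classes overlapped most with others: 77.7% of T cells and 66.0% of B cells also met the rule of another class, against 18.4% of neutrophils, 28.7% of dendritic cells, 14.5% of fibroblasts and 15.8% of macrophages. Library 1 was made on other beads and with another release of the pipeline than libraries 2 and 3, and its run name includes d3, so library and time cannot be told apart. Libraries shared 7 cell barcodes, and tags of the same library shared 0.

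Saa3 molecules lay mostly in macrophages. Its level, in counts per 1000000 (CPM) of all molecules of the class in a tag, had a median of 43.9 in neutrophils (lowest 19.5, highest 180, 9 tags), 138 in monocytes (26.1 to 2656, 10 tags; 268 without library 1), 20.3 in dendritic cells (4.47 to 947, 16 tags) and 102 in fibroblasts (4.26 to 777, 9 tags), against 366 in macrophages (40.3 to 1568, 18 tags). All of these ranges overlap. Of 226684 Saa3 molecules, 2.77% lay in monocytes, 1.66% in fibroblasts, 0.656% in dendritic cells, 0.0666% in neutrophils, 3.71% in B cells and 9.68% in cells of no class, against 81.0% in macrophages. Near the macrophage limit, 735 cells just inside it held 525 CPM of Saa3 and 1092 cells just outside it held 795 CPM. B cells had a median of 409 CPM (6.98 to 2432, 18 tags), yet the 392 of them that also carried C1q transcripts at the macrophage level pooled at 917 CPM (median 18948.5 molecules per cell) and the other 387 at 55.7 CPM (median 7000), and B cells that met no other class rule had a median of 15.9 CPM. T cells had a median of 19.2 CPM (4.63 to 220, 18 tags), at the level of dendritic cells.

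How far Saa3 outside the macrophage class sat in few cells differed by class and library. In library 3, 3 cells held 95.4% of the 979 Saa3 molecules of 85 monocytes, and 3 cells held 94.7% of the 566 molecules of 168 dendritic cells. In library 1, 3 of 104 fibroblasts held 95.5% of the 1791 molecules of their class. The 3 highest cells held 39.1% of the 5139 molecules of 2224 monocytes in library 1 and 87.1% in library 2. They held 59.7% and 67.1% in dendritic cells of libraries 1 and 2, 64.0% and 58.8% in fibroblasts of libraries 2 and 3, and 69.2%, 60% and 26.3% in neutrophils of libraries 1, 2 and 3. Cells with 0.1% or more of their molecules from Saa3 numbered 54 among monocytes, 19 among fibroblasts, 9 among dendritic cells, 3 among neutrophils and 180 in no class, against 862 among macrophages. The highest monocyte tag (2656 CPM, library 3) and the highest dendritic cell tag (947 CPM, library 3) lie in this library, at 24 and 38 cells.

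By class, Slpi was highest in neutrophils and was also found in monocytes, macrophages and B cells. Its median was 1545 CPM in neutrophils (847 to 2811), 287 CPM in monocytes (133 to 831; 677 without library 1), 57.1 CPM in dendritic cells (12.7 to 1188) and 34.0 CPM in fibroblasts (2.84 to 99.9), against 257 CPM in macrophages (30.6 to 1110). Macrophages rich in Saa3, described below, ran from 1609 to 5544 CPM (median 3212, 13 tags), above most neutrophil values. B cells, of which 66.0% also met another class rule, had a median of 215 CPM (8.72 to 2488). Of 143346 Slpi molecules, 2.69% lay in the 488 neutrophils, 6.55% in the 2422 monocytes and 16.0% in cells of no class, against 66.9% in the 14977 macrophages. A molecule of Slpi was found in 81.8% of neutrophils (95% Clopper-Pearson interval 78.0 to 85.1), in 46.8% of monocytes (44.8 to 48.8) and in 23.9% of macrophages (23.2 to 24.6), although neutrophils and monocytes held fewer molecules per cell. After each cell was thinned to 1000 molecules, the shares were 60.0% of neutrophils (55.5 to 64.4), 13.4% of monocytes (12.05 to 14.8) and 6.03% of macrophages (5.66 to 6.43). In T cells the share was 4.08% (3.04 to 5.35), which is no clean background, since 77.7% of T cells also met the rule of another class.

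Lcn2 and Wfdc21 had their highest class levels in neutrophils. Lcn2 had 438, 471, 611, 1067 and 671 CPM in neutrophils of tags 6, 7, 9, 10 and 12 of library 1, 464 CPM in tag 3 of library 2, and 1944, 1523 and 981 CPM in tags 7, 8 and 12 of library 3. In macrophages its median was 0.815 CPM and its highest tag 4.85 CPM, so the 2 classes did not overlap. Without library 1 the neutrophil median of Lcn2 was 1252 CPM, against 671 CPM with it. Wfdc21, which like Wfdc17 is on chromosome 11, had a median of 184 CPM in neutrophils (113 to 676; 324 without library 1), against 3.13 CPM in macrophages as a whole (0.264 to 30.5), again without overlap. Other cells did reach the neutrophil range of Wfdc21. Monocytes had a median of 2.97 CPM but ran from 0 to 143 CPM, and macrophages rich in Saa3, described below, ran from 12.3 to 178 CPM (median 69.8). Neutrophils held 52.0% of all 4270 Lcn2 molecules and 15.3% of all 4339 Wfdc21 molecules, and macrophages held 12.3% and 59.7% of them. In fibroblasts Wfdc21 was at 0 in 6 of 9 tags.

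Hp was found in neutrophils and monocytes. It had 455, 592, 519, 671 and 478 CPM in neutrophils of the 5 tags of library 1, 360 CPM in the tag of library 2, and 347, 547 and 513 CPM in the 3 tags of library 3. In monocytes its median was 188 CPM (36.6 to 339; 98.8 without library 1), in dendritic cells 26.0 CPM (0 to 107; 10.1 without library 1) and in fibroblasts 44.2 CPM (4.56 to 86.7; 29.0 without library 3), against 10.1 CPM in macrophages (3.41 to 55.1). Neutrophils and macrophages did not overlap, while monocytes and macrophages did. Neutrophils held 6.54% of all 18816 Hp molecules and monocytes 36.8%, against 30.1% in macrophages.

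Wfdc17 was found in all phagocyte classes and was highest in macrophages. Its median was 360 CPM in neutrophils (117 to 838; 585 without library 1 and 235 without library 3), 423 CPM in monocytes (305 to 492), 368 CPM in dendritic cells (244 to 709) and 35.0 CPM in fibroblasts (29.5 to 110; 55.9 without library 2), against 758 CPM in macrophages (600 to 1209). The monocyte and fibroblast ranges lay wholly below that of macrophages. T cells held 386 CPM (155 to 543), which was 77.1 CPM in T cells that met no other class rule. At least 1 Wfdc17 molecule was found in 47.0% of fibroblasts (95% Clopper-Pearson interval 42.1 to 51.9) and in 91.6% of macrophages (91.1 to 92.0), and 82.2% of its 345345 molecules lay in macrophages.

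**Figure D1:**
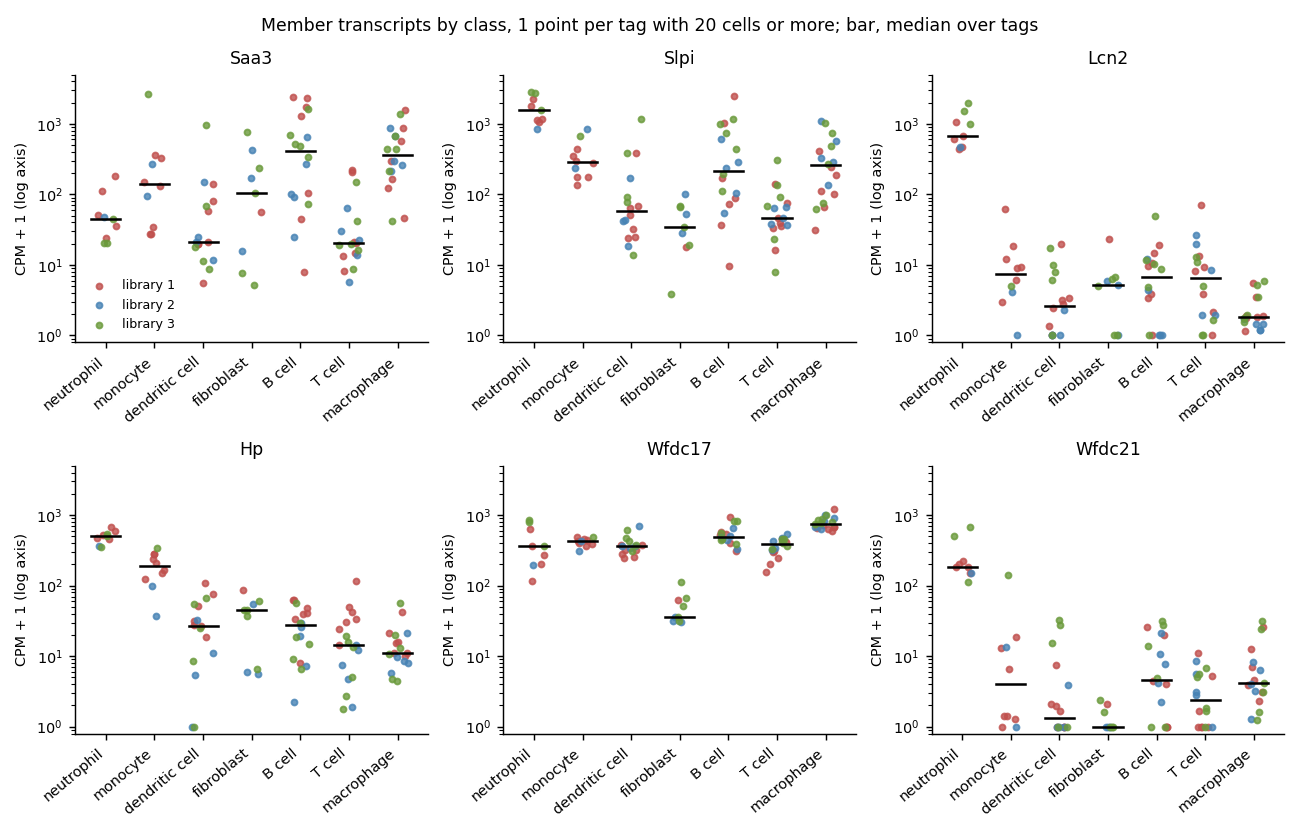
Level of each of the 6 transcripts (CPM + 1, log axis) in 7 cell classes, with 1 point for each tag that held 20 cells or more of the class, coloured by library, and a bar at the median over tags. Lcn2, Hp and Wfdc21 are highest in neutrophils, with medians of 671, 513 and 184 CPM, and Wfdc17 is highest in macrophages at 758 CPM.

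**Figure D2:**
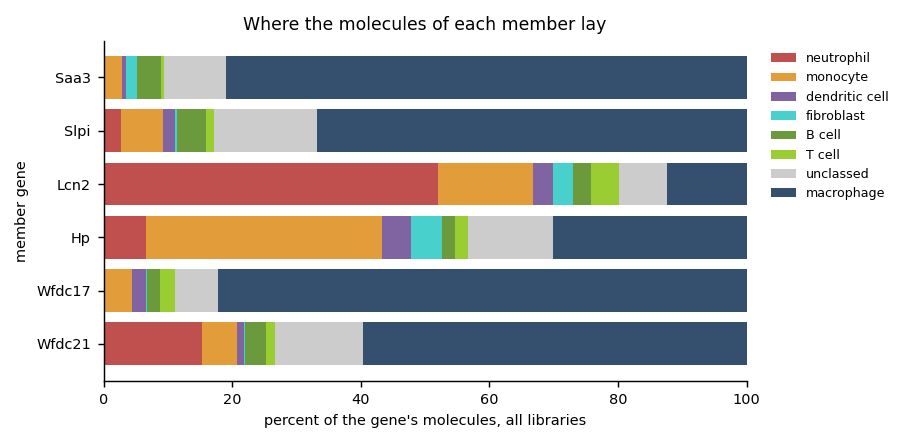
Share of all molecules of each gene (percent, 3 libraries together) that lay in each cell class. Neutrophils held 52.0% of Lcn2 molecules, whereas macrophages held 81.0% of Saa3 and 82.2% of Wfdc17 molecules.

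Neutrophils differed from macrophages of the same tags in all 6 transcripts (9 tags). By edgeR's quasi-likelihood test with Benjamini-Hochberg adjustment over 10346 genes, 19.9% of genes were higher and 39.8% lower in neutrophils, 59.7% in all, so a call on its own is common here and the sizes carry the comparison. Lcn2 was 460-fold higher (log2 8.84 ± 0.26, SE, edgeR adjusted p 4.66e-24), the rank of 9 among all genes tested from the highest difference down. Wfdc21 was 37.8-fold higher (5.24 ± 0.37, edgeR adjusted p 4.11e-14) and Hp 31.5-fold higher (4.98 ± 0.22, edgeR adjusted p 1.70e-19). Slpi was 7.57-fold higher (2.92 ± 0.29, edgeR adjusted p 1.70e-10), and each of these 4 was higher in 9 of 9 tags. Saa3 was 8.33-fold lower (-3.06 ± 0.36, edgeR adjusted p 8.83e-09, in 8 of 9 tags), and Wfdc17 was 1.99-fold lower (-0.99 ± 0.21, edgeR adjusted p 0.000139, in 7 of 9 tags). Wfdc17 lay near the typical gene, with a rank of 3988 among the 10346 genes from the lowest difference up. Without library 1 Wfdc17 stood at -0.74 against a median of -0.68 for all genes, and within library 3 it stood at -0.23 ± 0.32 and was not called. The median difference of all genes was -0.56 under TMM scaling and -0.73 under the size factors of DESeq2, and no member changed direction between them. Without library 1 Saa3 stood at -4.36 and Slpi at 1.81, and without library 3 Saa3 stood at -2.46. With at least 50 cells per class (3 tags) Lcn2, Hp and Wfdc21 stood at 7.86, 4.36 and 3.93, and summed per library Lcn2 stood at 9.74. Near the class limit, 114 cells just inside it held 386 CPM of Lcn2 and 1095 CPM of Slpi, and 156 cells just outside it 253 CPM of Lcn2 and 856 CPM of Slpi.

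Other genes of the acute phase split between neutrophils and macrophages: of 8 tested, 4 were higher and 3 lower in neutrophils, with a median log2 difference of 0.02 against -0.56 for all genes. Over all genes tested, 19.9% were higher and 39.8% lower in neutrophils. Chil1, a chitinase-like secreted protein (8.96 ± 0.27, edgeR adjusted p 6.16e-24), was higher and Mt2, a metallothionein (-4.21 ± 0.30, edgeR adjusted p 4.38e-14), lower in 9 of 9 tags each. Among 9 cystatins, stefins and other inhibitors, 3 were higher and 4 lower. Stfa2l1, a stefin, led at 8.98 ± 0.30 (edgeR adjusted p 1.03e-22), with the stefin-like Gm5483 at 8.95, and reads may be shared between such near copies. Timp1, the tissue inhibitor of metalloproteinases, was lower (-2.85 ± 0.49, edgeR adjusted p 8.16e-06). A further list held other WAP domain genes, serpins and the peptidase inhibitor Pi16, which is neither. Of its 10 genes tested 1 was higher, Pi16 itself (5.74 ± 0.35, edgeR adjusted p 1.09e-15), and 5 lower, led by Serpinb6a (-3.67 ± 0.25, edgeR adjusted p 2.21e-14).

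The proteases and binding partners of the 6 proteins were divided too, where 19.9% of all genes tested were higher and 39.8% lower in neutrophils. Mmp9, the gelatinase that Lcn2 binds, was higher in neutrophils (5.32 ± 0.33, edgeR adjusted p 1.83e-15), as was Mmp8, whereas the other 10 of 12 proteases tested were lower, Prtn3, a serine protease of myeloid granules, the most (-3.14 ± 0.52, edgeR adjusted p 4.11e-06). The 12 proteases had a median of -2.80, against -0.56 for all genes. Of 7 granule genes outside the class rule 4 were higher, led by lactoferrin (Ltf, 7.14 ± 0.46, edgeR adjusted p 4.96e-15), and 2 lower, led by Cybb, the oxidase subunit (-2.42 ± 0.19, edgeR adjusted p 6.72e-13). Of 11 receptors tested 6 were higher, led by Fpr2, a receptor of serum amyloid A proteins (5.02 ± 0.21, edgeR adjusted p 3.99e-20), and 4 lower, led by Cd163 (-4.79 ± 0.55, edgeR adjusted p 5.50e-09). Among 17 inducers and their signalling genes 10 were higher and 4 lower in neutrophils, with Il1b at the top (3.31 ± 0.19, edgeR adjusted p 3.26e-16) and Il6 at the bottom (-5.45 ± 0.41, edgeR adjusted p 3.12e-13). The C/EBP genes Cebpb (1.54 ± 0.14, edgeR adjusted p 1.18e-11) and Cebpd (2.66 ± 0.24, edgeR adjusted p 1.75e-11) were higher in 9 of 9 tags.

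Monocytes carried more Hp and Lcn2 and less Wfdc17 than macrophages of the same tags (10 tags), the same macrophage class serving as the comparison throughout. Of 11138 genes 32.0% were higher and 32.5% lower in monocytes by edgeR, 64.6% in all. Hp was 12.2-fold higher (3.60 ± 0.19, edgeR adjusted p 1.04e-09, in 10 of 10 tags), with a rank of 27 among all genes tested, and stood at 2.57 without library 1. Wfdc17 was 1.73-fold lower (-0.79 ± 0.085, edgeR adjusted p 1.02e-06, in 10 of 10 tags). Lcn2 was 9.06-fold higher (3.18 ± 0.26, edgeR adjusted p 5.20e-08, in 8 of 10 tags), Saa3 2.44-fold lower (-1.28 ± 0.36, edgeR adjusted p 0.00543, in 8 of 10 tags) and Slpi 1.58-fold higher (0.66 ± 0.26, edgeR adjusted p 0.0365, in 6 of 10 tags). These 3 calls ended without library 1, which held 7 of the 10 tags: the log2 differences were then 0.54, -0.51 and -0.45. Saa3 was also lower within library 2 alone (-1.41 ± 0.28, edgeR adjusted p 3.49e-05, 2 tags). Slpi was not called there (-0.34 ± 0.24). The call of Slpi also ended with DESeq2's Wald test (0.60), in cells of 1 class rule (0.56) and without the highest doublet scores (0.61), with adjusted p from 0.00171 to 0.980 over its alternatives. Wfdc21 differed by -0.11 ± 0.47 (edgeR adjusted p 0.850), and by 1.55 without library 1. Summed per library, or with the tags not taken as a block, the calls of Saa3 and Slpi also ended, and summed per library Lcn2 stood at 4.09. The 7 neutrophil markers summed to a median of 409 CPM in monocytes (272 to 595), against 169 CPM in macrophages (109 to 360), and their part in the values of Hp, Lcn2 and the granule genes was not tested.

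In the wider lists, 3 of 8 acute-phase genes were higher in monocytes and 3 lower, with C3, the complement protein (2.36 ± 0.13, edgeR adjusted p 1.22e-09), and Mt2 (-3.15 ± 0.20, edgeR adjusted p 4.17e-09) at the ends. Over all genes tested, 32.0% were higher and 32.5% lower in monocytes. Of 12 genes on the list of WAP domain genes, serpins and Pi16, 4 were higher, led by Pi16 (3.39 ± 0.24, edgeR adjusted p 1.46e-08), and 2 lower, led by Serpinb6a (-3.20 ± 0.15, edgeR adjusted p 2.90e-10). Proteases gave 3 higher and 8 lower of 13, from Plat, the tissue plasminogen activator (1.61 ± 0.49, edgeR adjusted p 0.00978), to Mmp12, the macrophage elastase (-3.10 ± 0.18, edgeR adjusted p 1.77e-09). Cystatins and other inhibitors gave 3 higher and 2 lower of 7, from Spint1 (2.12 ± 0.11, edgeR adjusted p 9.63e-10) to Timp2 (-2.55 ± 0.15, edgeR adjusted p 3.13e-09). Granule genes gave 4 higher and 1 lower of 6, led by Cd177 (4.38 ± 0.17, edgeR adjusted p 3.61e-11), with Padi4 lower (-0.84 ± 0.29, edgeR adjusted p 0.0194). Receptors gave 4 higher and 4 lower of 11, from Fpr2 (1.47 ± 0.15, edgeR adjusted p 5.47e-07) to Cd163 (-3.59 ± 0.20, edgeR adjusted p 1.25e-09), and inducers 9 higher and 6 lower of 17, from Il1r1 (1.72 ± 0.25, edgeR adjusted p 2.04e-05) to Il6 (-1.10 ± 0.40, edgeR adjusted p 0.0244).

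Dendritic cells held less Saa3, Slpi and Wfdc17 than macrophages (16 tags). Of 10799 genes 29.7% were higher and 36.1% lower in dendritic cells by edgeR, 65.8% in all. Saa3 was 8.86-fold lower (-3.15 ± 0.49, edgeR adjusted p 4.89e-06, in 14 of 16 tags) and Slpi 2.78-fold lower (-1.48 ± 0.33, edgeR adjusted p 0.000461, in 13 of 16 tags; -0.96 without library 2). Wfdc17 was 2.23-fold lower (-1.16 ± 0.088, edgeR adjusted p 4.33e-11, in 16 of 16 tags). Hp was 2.22-fold higher (1.15 ± 0.20, edgeR adjusted p 1.81e-05, in 12 of 16 tags), but among cells that met the rule of 1 class only it was at -0.55 and not called, and without library 1 it was at 0.63 and not called. Wfdc21 was lower (-1.24 ± 0.53, edgeR adjusted p 0.0426, in 13 of 16 tags), and the call ended without library 1 (0.56) or library 2 (-1.13). In cells of 1 class rule Saa3 stood at -4.01 and Slpi at -2.98. Wfdc21 stood at -2.76 without library 3 and at -2.79 with at least 50 cells per class. With the tags not taken as a block Saa3 stood at -2.45, and Slpi (-1.11) and Wfdc21 (-1.20) were not called. Lcn2 was too low to test, with a median of 1.62 CPM in dendritic cells and 5 of 16 tags at 0. The 7 neutrophil markers summed to a median of 1057 CPM in dendritic cells (474 to 3014), against 169 CPM in macrophages (109 to 360). Most of this sum was Il1r2, pooled at 911 CPM in dendritic cells against 44.8 CPM in macrophages. Pooled levels of S100a8, S100a9, Hdc, Retnlg and Cxcr2 were 7.40 to 45.7 CPM against 3.50 to 21.5 CPM, and Csf3r was lower (35.0 against 59.7 CPM). The part of these markers in the value of Hp was not tested.

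Of the lists, 6 of 8 acute-phase genes were lower in dendritic cells, led by ceruloplasmin (Cp, -3.43 ± 0.34, edgeR adjusted p 4.58e-09), and 1 was higher, Serpina3g (2.30 ± 0.24, edgeR adjusted p 9.40e-09), a serpin with close copies. Over all genes tested, 29.7% were higher and 36.1% lower in dendritic cells. Receptors were lower for 9 and higher for 1 of 11, from Plscr1, a membrane protein that binds Slpi (2.84 ± 0.11, edgeR adjusted p 1.15e-16), to Cd163 (-3.50 ± 0.32, edgeR adjusted p 9.24e-10). Inducers were lower for 10 and higher for 4 of 17, from Il1b (1.37 ± 0.14, edgeR adjusted p 4.48e-09) to Il6 (-3.05 ± 0.29, edgeR adjusted p 2.57e-09), and Cebpb was lower (-1.57 ± 0.069, edgeR adjusted p 1.82e-15). Proteases were lower for 10 and higher for 1 of 13, from Plat (2.25 ± 0.33, edgeR adjusted p 2.77e-06) to Ctsd (-3.45 ± 0.15, edgeR adjusted p 1.54e-15). Cystatins and other inhibitors gave 5 higher and 2 lower of 7, from Spint2 (4.83 ± 0.21, edgeR adjusted p 1.72e-15) to Timp2 (-3.44 ± 0.090, edgeR adjusted p 2.36e-19). The list of WAP domain genes, serpins and Pi16 gave 4 higher and 5 lower of 13, from Serpinb6b (3.73 ± 0.33, edgeR adjusted p 6.68e-10) to Serpinb6a (-3.92 ± 0.20, edgeR adjusted p 1.95e-14). Granule genes gave 2 higher and 4 lower of 6, from Mmp25 (4.58 ± 0.29, edgeR adjusted p 1.19e-12) to Lyz2 (-2.59 ± 0.18, edgeR adjusted p 5.45e-12). In this class the neutrophil markers summed to 1057 CPM against 169 CPM in macrophages, mostly through Il1r2 (pooled at 911 CPM against 44.8 CPM). The part of these markers in the values of the granule genes was not tested.

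Fibroblasts held little Slpi and Wfdc17 (9 tags). Of 11258 genes 32.9% were higher and 34.6% lower in fibroblasts than in macrophages by edgeR, 67.4% in all. Wfdc17 was 17.8-fold lower (-4.15 ± 0.17, edgeR adjusted p 3.89e-12) and Slpi 9.77-fold lower (-3.29 ± 0.29, edgeR adjusted p 4.95e-08), each in 9 of 9 tags, and Wfdc17 stood at -5.03 in cells of 1 class rule. Saa3 was 4.57-fold lower (-2.19 ± 0.60, edgeR adjusted p 0.00438, in 8 of 9 tags), a call that ended without library 3 (-1.92), and it was at -2.76 without library 2, -1.58 with the tags not taken as a block and -1.12 summed per library. Hp was 2.68-fold higher (1.42 ± 0.37, edgeR adjusted p 0.00283, in 6 of 9 tags). Lcn2 was 3.50-fold higher (1.81 ± 0.70, edgeR adjusted p 0.0319, in 5 of 9 tags), a call that ended without library 1 (1.01) or library 2 (1.51) and stood at 2.57 summed per library, at a median of 4.25 CPM in fibroblasts with 3 of 9 tags at 0. Wfdc21 was too low to test. The fibroblast class also held all 7 mesothelial markers, 5.68 to 807 CPM in sum (median 487), against 0.306 to 7.27 CPM in macrophages (median 1.52), and their part in these differences was not tested.

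The fibroblast transcripts of the acute phase were other ones, where 32.9% of all genes tested were higher and 34.6% lower in fibroblasts. Of 10 acute-phase genes tested 7 were higher and 3 lower, with a median of 2.04 against -0.04 for all genes, led by Serpina3n, an antichymotrypsin (8.87 ± 0.32, edgeR adjusted p 1.07e-12), and by the pentraxin Ptx3 (8.15 ± 0.33, edgeR adjusted p 4.01e-12), with the endotoxin receptor Cd14 at the other end (-4.05 ± 0.25, edgeR adjusted p 5.00e-10). Of 13 genes on the list of WAP domain genes, serpins and Pi16, 10 were higher, led by the collagen chaperone Serpinh1 (8.81 ± 0.24, edgeR adjusted p 4.57e-14), and 1 lower, Serpinb8 (-2.40 ± 0.31, edgeR adjusted p 4.75e-06). Cystatins and other inhibitors gave 5 higher and 4 lower of 9, from Timp3 (8.62 ± 0.33, edgeR adjusted p 1.85e-12) to Cst7 (-2.97 ± 0.61, edgeR adjusted p 0.000459). Proteases gave 3 higher and 9 lower of 13, from Plat (6.34 ± 0.24, edgeR adjusted p 2.13e-12) to Prtn3 (-4.58 ± 0.37, edgeR adjusted p 1.54e-08). The 4 granule genes tested were lower, led by Lyz2 (-4.35 ± 0.24, edgeR adjusted p 1.51e-10). Receptors gave 2 higher and 10 lower of 12, from Slc22a17, a receptor of Lcn2 (3.54 ± 0.21, edgeR adjusted p 4.19e-10), to Fpr1 (-5.61 ± 0.42, edgeR adjusted p 6.29e-09). Inducers gave 5 higher and 12 lower of 18, from the oncostatin M receptor Osmr (7.83 ± 0.22, edgeR adjusted p 5.12e-14) to Il1a (-5.05 ± 0.30, edgeR adjusted p 3.90e-10), and Il6 was higher here (1.53 ± 0.40, edgeR adjusted p 0.00338).

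**Figure D3:**
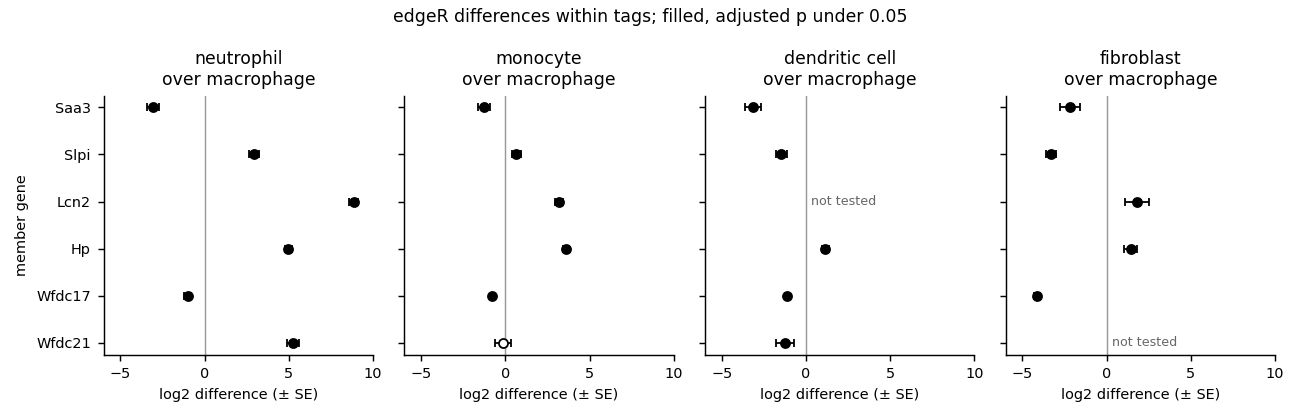
Difference of each transcript between 4 classes and macrophages of the same tags (log2, edgeR, ± SE), filled where the adjusted p was under 0.05. Lcn2 lies farthest to the right in neutrophils at 8.84, and Wfdc17 lies left of 0 in each of the 4 comparisons, which share their macrophages.

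Within macrophages Saa3 and Slpi were concentrated in a small group of cells, and Wfdc17 was not. The 10% of macrophages with most molecules of the gene held 98.5% of Saa3, 97.5% of Slpi and 90.2% of Hp molecules, but 46.3% of Wfdc17 molecules. Hp was found in only 13.7% of macrophages, and the share was 100% for the sparser Lcn2 and Wfdc21. For these 3 genes it cannot tell concentration from low counts. In neutrophils the same share for Slpi was 42.8%. A cell was called rich where 0.1% or more of its molecules came from the gene, a threshold chosen after the values were seen. By it 862 of 14977 macrophages, 5.76% (95% Clopper-Pearson interval 5.39 to 6.14), were rich in Saa3 and held 94.9% of the macrophages' Saa3, with 185 cells at 0.05 to 0.1% and 211 at 0.1 to 0.2%. Rich in Slpi were 616 cells, 4.11% (3.80 to 4.44). Both applied to 400 cells, 46.4% of those rich in Saa3 and 64.9% of those rich in Slpi.

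The share of macrophages rich in Saa3 ran from 0.226 to 23.8% between tags. In tags 6 to 12 of library 1 it was 6.58, 1.48, 5.88, 3.72, 23.8, 2.20 and 0.694%. In tags 1 to 5 of library 2 it was 10.5, 7.30, 3.61, 2.51 and 3.73%, and in tags 7 to 12 of library 3 it was 10.04, 3.71, 0.226, 4.66, 1.99 and 11.4%. Every library thus had tags below 3% and tags above 10%. Tag 10 of library 1, with the highest share, also had the highest macrophage level of Saa3 (1568 CPM) and of Wfdc17 (1209 CPM). Tag 9 of library 3, with the lowest share, had the lowest macrophage level of Saa3 (40.3 CPM) and of Wfdc21 (0.264 CPM). The share rich in Slpi ran from 0.555 to 12.1% (median 3.72%). No genotype or time can be read from these tags.

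**Figure D4:**
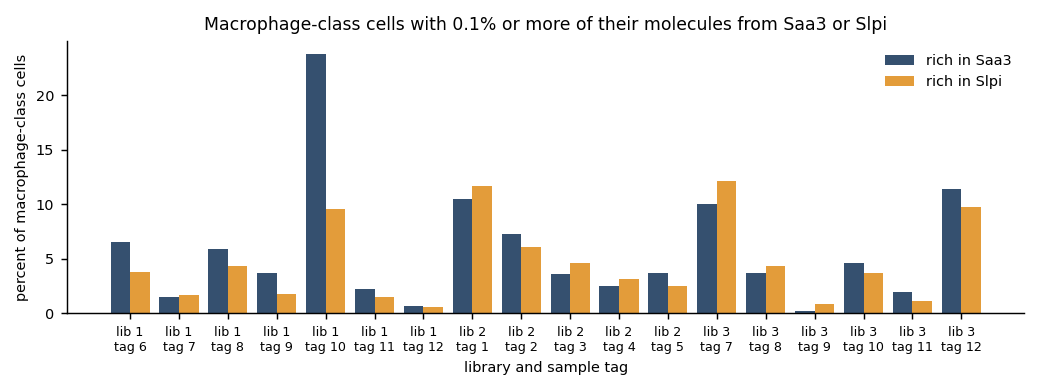
Percent of macrophages in each tag with 0.1% or more of their molecules from Saa3 (blue) or from Slpi (orange), by library and tag. Tag 10 of library 1 stands at 23.8% for Saa3, and tag 9 of library 3 at 0.226%.

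Macrophages with an F7 molecule carried more of 5 of the 6 transcripts. This is the contrast that chose the genes, so it is given as a description. Over the 16 tags with 20 cells on each side, cells with F7 had a median of 990 CPM of Saa3 (91.3 to 2466), against 293 CPM in cells without it (13.4 to 1214), and 875 CPM of Slpi (48.9 to 2559), against 145 CPM (16.9 to 769). For Wfdc21 the medians were 16.7 CPM with F7 and 1.70 CPM without, for Hp 24.1 and 9.54 CPM, and for Wfdc17 917 and 775 CPM. Saa3, Slpi, Hp and Wfdc21 were higher with F7 in 16 of 16 tags and Wfdc17 in 15, whereas Lcn2 was higher in 5 (medians 0.889 with F7 and 0.826 CPM without). Cells with an F7 molecule were deeper, with a median of 32175.5 molecules against 19043, and the part of depth in these values was not tested.

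Arg1 and Prg4 split the macrophages more sharply than F7 in Saa3 and Slpi, and Lyve1 did so in Saa3 but not in Slpi. The other genes split Saa3 less sharply than F7 or the other way. With Arg1, the arginase of wound macrophages, the median was 620 CPM of Saa3 against 16.6 CPM without it, and 363 CPM of Slpi against 16.3 CPM, higher in 18 of 18 tags each. With Prg4, the lubricin of cavity macrophages, Saa3 stood at 2989 CPM against 128 CPM without it and Slpi at 2138 CPM against 86.7 CPM, higher in 16 of 16 tags each. Cells with Lyve1, a hyaluronan receptor of resident macrophages, had 1231 CPM of Saa3 against 287 CPM without it (higher in 15 of 18 tags). They had 641 CPM of Slpi against 188 CPM (higher in 17 of 18 tags). Cells with 10 or more molecules of the MHC class II gene H2-Ab1 had 96.0 CPM of Saa3 against 456 CPM in the others (higher in 0 of 18 tags), and cells with Cx3cr1, the gene that drives the recombinase, had 153 CPM against 739 CPM without it (higher in 1 of 18 tags). Cells with Gpnmb, a lysosomal glycoprotein, had 354 CPM of Saa3 against 469 CPM without it (higher in 5 of 18 tags) but 809 CPM of Wfdc17 against 509 CPM (higher in 17 of 18 tags). Cycling cells, by Mki67, had 659 CPM of Saa3 against 250 CPM in the others (higher in 16 of 18 tags), while Mki67 itself stood at 114 CPM in Saa3-rich cells against 166 CPM in the others, and was found in 48.8% against 28.8% of cells. Depth differed in these splits too. Cells with the gene had a median of 25598.5 molecules against 15544 for Arg1, 28632 against 20093 for Prg4 and 27274 against 20233 for Lyve1. For Mki67 it was 30897 against 17763 and for Gpnmb 23592 against 13855. Cells with Cx3cr1 (19631 against 22127.5) or H2-Ab1 (16643 against 22539) were shallower. The part of depth in these values was not tested.

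**Figure D5:**
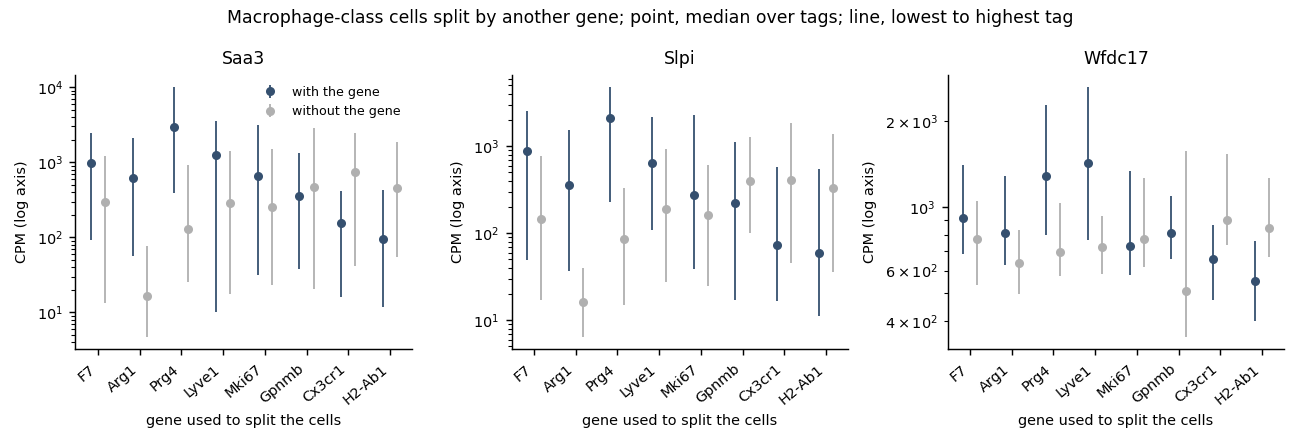
Levels of Saa3, Slpi and Wfdc17 (CPM, log axis) in macrophages with and without a molecule of 8 other genes (10 molecules for H2-Ab1), as median over tags with lines from the lowest to the highest tag. Saa3 with Prg4 stands at 2989 CPM against 128 CPM without it, while with H2-Ab1 it stands at 96.0 CPM against 456 CPM.

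Macrophages rich in Saa3 held more of each of the other transcripts among the 6 when pooled, again as a description. Pooled over tags, the 862 rich cells held 2770 CPM of Slpi against 84.6 CPM in the 14115 others, 2020 CPM of Wfdc17 against 686 CPM, 102 CPM of Hp against 9.37 CPM and 80.2 CPM of Wfdc21 against 1.90 CPM. Of the rich cells 279 came from tag 10 of library 1, so the pooled values weight that tag. Over the 13 tags with 20 rich cells or more, the median was 3212 CPM of Slpi in rich cells against 127 CPM in the others, 1843 CPM of Wfdc17 against 727 CPM, 80.2 CPM of Hp against 7.83 CPM and 69.8 CPM of Wfdc21 against 1.41 CPM, each higher in 13 of 13 tags. Lcn2 was higher too but stayed low, pooled at 5.47 CPM against 1.15 CPM. Its medians over tags were 2.06 CPM in rich cells and 0.747 CPM in the others, higher in 10 of 13 tags. F7 stood at 55.9 CPM in rich cells against 19.8 CPM in the others. The rich cells were macrophages by Adgre1 (549 against 633 CPM) and Csf1r (895 against 755 CPM), and 3 of 4 hepatocyte markers (Alb, Ttr and Serpina1c) were at 0 in them, the liver being the main source of acute-phase proteins. Of 7 mesothelial markers 6 had a molecule in rich cells, and Msln was at 0. The 7 mesothelial markers summed to 0 to 3.60 CPM in rich cells (median 0.996), against 0.329 to 8.19 CPM in the others (median 1.47). Neutrophil markers summed to 59.0 to 715 CPM in rich cells (median 144), against 108 to 339 CPM in the others (median 163).

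The transcripts most like each of the 6 were ranked by Pearson's r of log2(CPM + 10) over 98 class-by-tag sums, which share libraries and tags, among 8491 genes. For Saa3 these were Serpinb2 (0.68), Prg4 (0.63) and Ackr3 (0.63), and for Slpi the clotting factor F5 (0.82), Lrg1 (0.80) and Sod2 (0.80). For Lcn2 they were Mirt2 (0.94), Asprv1 (0.94) and Cxcr2 (0.93), for Wfdc21 Fpr1 (0.93), Il1f9 (0.91) and Hcar2 (0.91), and for Hp Gsr (0.91), Sgms2 (0.91) and Slc16a3 (0.87). For Wfdc17 they were Nckap1l (0.89), Cyba (0.89) and Fcer1g (0.87), transcripts common to phagocytes. Lcn2 and Wfdc21 were like each other (0.86), and Saa3 and Lcn2 were not (-0.11).

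Over single macrophages within tags (Pearson's r of log2 of molecules per 10000 plus 1, mean of 18 tags, 10209 genes, a description with no test), Saa3 was most like Prg4 (0.61), Lrg1 (0.57) and Prtn3 (0.55), and its r with Slpi was 0.58. Slpi was most like Prtn3 (0.59), F5 (0.59) and Lrg1 (0.56), and Wfdc21 most like Prtn3 (0.36), Lrg1 (0.31) and Padi4 (0.31). Hp was most like Mcemp1 (0.36), F10 (0.35) and Prtn3 (0.32), and Wfdc17 most like Timp2 (0.43), Ctsd (0.42) and Serpinb6a (0.42). Lcn2 in macrophages went with the neutrophil genes S100a9 (0.43), S100a8 (0.42) and Hdc (0.33), and with 526 molecules in 1.16% of macrophages (95% Clopper-Pearson interval 0.990 to 1.34) it lay below its share in T cells (3.02%, 2.14 to 4.14, median 14294 molecules per cell against 20550). The T cell share is no clean floor, since 77.7% of T cells also met the rule of another class. The part of free RNA of neutrophils in the Lcn2 signal of macrophages was not tested.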

How the data were processed

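Each deposited table gives counts of molecules by cell and gene, corrected by the authors' pipeline for duplicates and errors in molecular identifiers, per the file headers (BD Rhapsody WTA Analysis Pipeline 2.0b1 for library 1, 1.10 for libraries 2 and 3). The reference was GRCm38, per the file headers. Intronic reads were kept in library 1 only, and no source used here says how reads shared by near copies were counted. The 6 members and all lists were chosen with earlier results of these data known.

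Cells under 200 genes (122 of 25762) were left out. Classes followed the first rule met: T cell, 2 or more Cd3e, Cd3d and Cd3g molecules; B cell, 2 or more Cd79a; neutrophil, 1% or more S100a8 and S100a9 with Csf3r; fibroblast, 0.5% or more Col1a1, Col3a1 and Dcn; macrophage, 0.1% or more C1qa, C1qb and C1qc; dendritic cell, Flt3; monocyte, 2 or more Ly6c2. Among cells near the macrophage limit, 1092 with 0.05 to 0.1% C1q held 795 CPM of Saa3 and 735 with 0.1 to 0.15% held 525 CPM. Counts were summed per tag and class (20 cells or more) and tested with edgeR 4.0.16 (R 4.3.3): quasi-likelihood F test, TMM, filterByExpr, tag as a block (both classes came from the same tagged replicate), Benjamini-Hochberg over all genes tested, threshold 0.05. Alternatives included DESeq2 1.42.0. The test was tested on simulated data. Scrublet (scanpy 1.11.5) called 1 cell, so doublets were left in, and the 2% with the highest scores (512) were left out as an alternative. Intervals are Clopper-Pearson at 95% and cover counting error only. Named list genes were, per list and comparison, the called genes with the largest difference in each direction, plus known partners of a member; genes that define a class were kept out of the list counts. RefSeq promoters (GRCm38.p6) were searched for 4 motifs.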

Additional observations from a re-analysis of the deposited data

Results flagged for a closer look

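Differences between classes were in 3 cases themselves unequal between libraries, by a class-by-library term in edgeR's quasi-likelihood test adjusted over all genes. Library stands for beads, pipeline release and perhaps time, which cannot be told apart. Slpi was higher in neutrophils than in macrophages by 3.65 ± 0.17 (log2, SE) in library 1 and by 2.12 ± 0.35 in library 3 (edgeR adjusted p of the term 1.67e-06), with pooled neutrophil levels of 1577 and 1970 CPM and pooled macrophage levels of 161 and 443 CPM in the 2 libraries. Saa3 was lower in neutrophils by -2.44 ± 0.24 in library 1 and by -4.62 ± 0.43 in library 3 (edgeR adjusted p of the term 0.00486), with 69.2% of the 117 neutrophil molecules of library 1 in 3 cells. Wfdc21 was lower in dendritic cells than in macrophages by -2.75 ± 0.38 in library 1 and -2.93 ± 1.08 in library 2, and higher by 1.69 ± 0.62 in library 3 (edgeR adjusted p of the term 0.00788).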

How the results depend on the processing

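Of 233 values of single members under another setting, 210 kept their direction and side of the threshold, 16 lost the call and 7 changed sign, the last all in monocytes or dendritic cells. All 6 members kept their calls in neutrophils under every setting run, although within library 3 alone Wfdc17 was at -0.23 and not called. Without library 1 it was at -0.74, against a median of -0.68 for all genes. For monocytes the values without 1 library ran from -1.53 to -0.51 (Saa3), -0.45 to 0.88 (Slpi), 0.54 to 3.34 (Lcn2) and -0.58 to 1.55 (Wfdc21), and counts of genes from 432 to 3691 higher and 464 to 3880 lower. For dendritic cells they ran from 0.63 to 1.33 (Hp), -2.76 to 0.56 (Wfdc21) and 2534 to 3585 genes lower, for fibroblasts from -2.76 to -1.91 (Saa3) and 1.01 to 1.51 (Lcn2), and for neutrophils from 1366 to 2046 genes higher and 2480 to 4000 lower. With no replicate block, monocyte Saa3, Slpi and Wfdc21 were at -0.71, -0.021 and 0.14, and dendritic cell Slpi and Wfdc21 at -1.11 and -1.20. Summed per library they were at -0.71, 0.10 and 0.74 in monocytes, with 1736 genes higher and 2123 lower, and Wfdc21 at -1.40 in dendritic cells. Monocyte Slpi was at 0.60 with DESeq2's Wald test, 0.56 in cells of 1 class rule and 0.61 without the highest doublet scores, its call ending in each, and dendritic cell Hp at -0.55 in cells of 1 class rule. With at least 50 cells 2542 genes were lower in neutrophils, and fibroblasts could not be fitted. The share of macrophages rich in Saa3 was 6.99% at 0.05% and 4.35% at 0.2% as the threshold, alternatives chosen after seeing the data. Of 252 medians by class, 247 moved by less than the SD over tags. The causes were not tested. Depth limits the low members: Lcn2 in dendritic cells and Wfdc21 in fibroblasts were below the filter.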

Other observations

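Macrophages rich in Saa3 also stood apart in genes outside the 6, given here as pooled CPM with no test, since the cells were chosen by Saa3 and 279 of the 862 came from 1 tag. Il6, the cytokine that drives the acute phase, stood at 903 CPM in rich cells against 36.5 CPM in the others, and a molecule of it was found in 70.8% and 7.93% of cells. Arg1 stood at 6722 CPM against 869 CPM, fibronectin (Fn1) at 7495 CPM against 1131 CPM and Il1b at 1902 CPM against 623 CPM. Genes of cavity macrophages were higher too: Prg4 at 1096 CPM against 8.60 CPM, Alox15 at 349 CPM against 1.47 CPM and the transcription factor Gata6 at 29.8 CPM against 1.32 CPM, although Gata6 was found in 21.9% of rich cells and Prg4 in 52.6%. Cd163, the haptoglobin receptor, stood at 244 CPM against 26.8 CPM. Lower in rich cells were Gpnmb (248 against 1802 CPM), H2-Ab1 (210 against 1187 CPM) and Cx3cr1 (26.8 against 192 CPM).

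The related serum amyloid genes Saa1 and Saa2 were nearly absent. Saa1 had 65 molecules in the 862 rich cells and 4 in the 14115 others, and Saa2 had 8 and 1. Any reads shared between the near-identical Saa1 and Saa2, or between them and Saa3, were not separable from these counts.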
